A study of Mus with 6 samples.

Results

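The synaptic vesicle and release machinery was followed here as 36 genes, chosen by gene symbol, and all 36 were among the 18887 genes of the deposited table. Synaptic vesicles store neurotransmitter at nerve terminals. They are filled by transporters, held by synapsins, docked at the active zone by scaffold and priming proteins, fused with the plasma membrane by SNARE proteins when a synaptotagmin binds calcium, and recovered by endocytosis. These genes are known above all from neurons, so in a precipitate meant to hold microglial RNA they are best known from another cell class, although some of them, such as Syt11, are also known from microglia and other glia.

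The data are RiboTag precipitates from whole mouse brain. In the RiboTag method 1 class of cells is made to carry an epitope on its ribosomes, so that an antibody pulls down those ribosomes and the transcripts being translated on them, and microglia are the class named in the labels. The 4 IRKO libraries are labelled KO, which the series title on insulin signalling lets one read as an insulin receptor knockout, and the 2 control libraries (titled MG, genotype Ctr) are their reference. The transgenes that drive the tag and the deletion, the age of the mice and whether each library came from its own animal are not stated in the labels. The p-values therefore cover the scatter of these 6 libraries, which may be technical. No input or unbound library was analysed here, so the enrichment of microglial RNA was not measured. In bulk precipitates like these, fewer cells of a type and less RNA per cell cannot be told apart.

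Recovered depth was 13858978 to 14568773 reads in the IRKO libraries and 16883098 and 19010680 in the controls, and every library correlated better with its own group than with the other. Insr, which encodes the insulin receptor, had 357, 366, 290.5 and 339.9 normalized counts in IRKO replicates 1 to 4, against 565 and 532 in control replicates 1 and 2 (log2 change −0.70 ± 0.135, SE; limma adjusted p = 0.00211). As deposited its values fell but were not lost. The size of this fall depended on the scaling. Its log2 change was −2.21 scaled to the microglia list described below, −1.45 scaled to the general neuron list and −0.56 with quantile normalization. Which cells its reads came from was not tested. Since each value counts the reads of a whole gene, the loss of single exons could not be seen.

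Most vesicle and release genes were higher in the IRKO precipitates as deposited. Their median log2 change (0.96) was near that of a general neuron list (0.85), but also near that of an oligodendrocyte list (0.86). Lists of endothelial and mural genes (0.76) and of inhibitory neuron genes (0.55) had smaller medians. The 36 genes together took 1.21, 1.29, 1.32 and 1.12% of the normalized counts in IRKO replicates 1 to 4, against 0.501 and 0.609% in the controls. As summed normalized counts, the measure used for the lists below, they had 150996 to 185815 in IRKO and 95184 and 112035 in the controls. Of the 36, all of which passed the filter on low values, 31 rose, 1 fell and 4 (Sv2c, Vamp2, Rims2 and Unc13c) did not pass the test. The rises made up 86.1% of the genes, where 26.6% of the 14698 genes tested were called higher and 29.0% lower (limma, Benjamini-Hochberg adjusted p under 0.05). The median log2 change of the 36 was 0.96, with a range from −0.43 for Syt11 to 1.74 for Slc17a6, beside a median of 0.017 over all genes tested. In 30 genes all 4 IRKO values lay above both control values, and in 1 all lay below, against 32.8% and 34.8% of all genes tested. At least 2-fold rises were called in 12 of the 36, and in 11.5% of all genes tested.

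**Figure D1:**
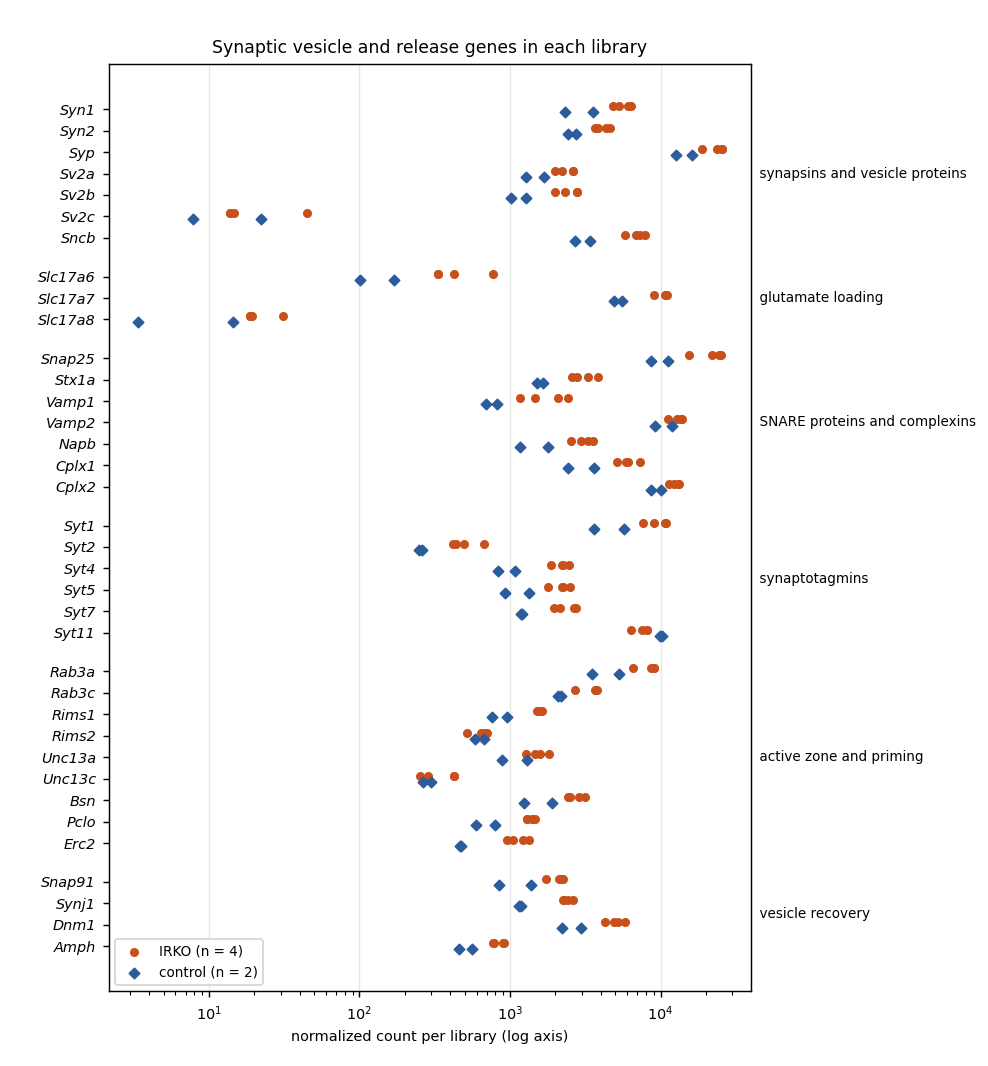
Normalized count of each of the 36 genes in each library on a log axis, ordered by role, with 1 point per library (orange circles, 4 IRKO; blue diamonds, 2 control). In 30 genes every IRKO point lies right of both control points, in Syt11 every IRKO point lies left of them, and in Sv2c, Vamp2, Rims2, Unc13a and Unc13c the groups overlap.

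Markers of other cell types moved between the same groups. Of 26 homeostatic microglia genes 25 rose and 1 fell. Their log2 changes had a median of 1.63, and their summed level was 291029 to 410141 normalized counts in IRKO and 140214 and 111428 in the controls. Of 20 astrocyte genes 19 fell and 1 did not pass, with a median of −4.11 and summed levels of 30768 to 40462 in IRKO and 692029 and 554148 in the controls. Neurons were followed with a list that shares no gene with the 36 and names cytoskeletal, RNA-binding and other general neuronal genes. Of its 26 genes 25 were tested, of which 21 rose and 1 fell, with a median of 0.85 and summed levels of 117230 to 137775 in IRKO and 76695 and 81551 in the controls. The sum of the 36 genes over the sum of this list was 1.28 to 1.48 in IRKO and 1.24 and 1.37 in the controls, so the groups overlapped. No marker of these 3 lists was at 0 in every library. The part that cell content plays in the changes of the release genes was not tested.

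**Figure D2:**
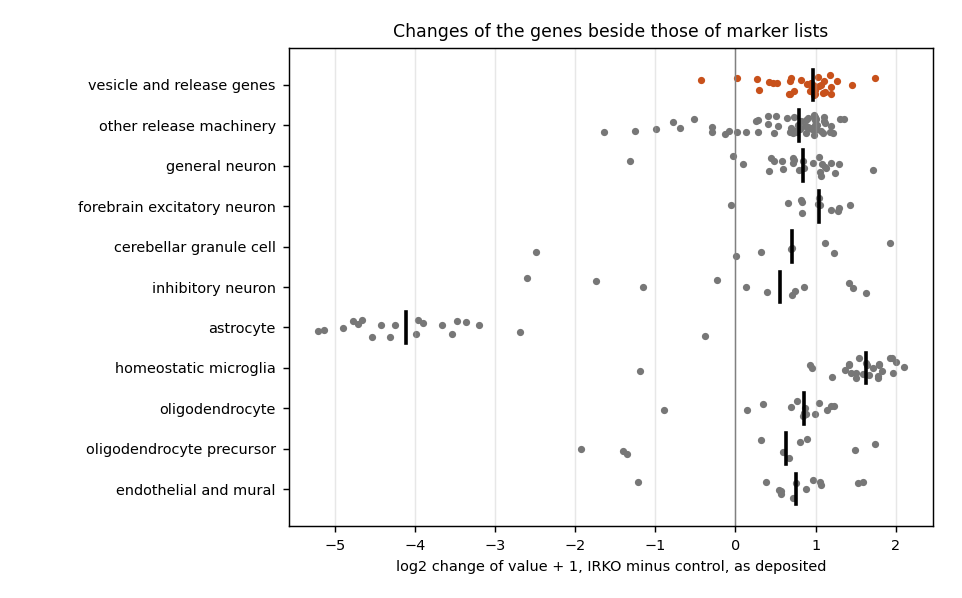
Log2 change of each tested gene, IRKO minus control as deposited, for the 36 vesicle and release genes (orange) and for other lists (grey), with a black bar at each median and points spread vertically only for visibility. The 36 genes have a median of 0.96, between the general neuron list (0.85) and the microglia list (1.63), and far from the astrocyte list (−4.11). The forebrain excitatory neuron list lies higher than the 36 (1.04), and the oligodendrocyte (0.86) and inhibitory neuron (0.55) lists lie lower.

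The direction of these changes depends on what the libraries are scaled to. When each library was brought to the same mean level of the general neuron list, 4 of the 36 were called higher (Sncb, Slc17a6, Syt4 and Erc2), 3 lower (Vamp2, Syt11 and Rims2), and their median was 0.21, beside −0.73 for all genes tested. In that scaling 5.01% of all genes were called higher and 58.7% lower. When the microglia list was used in this way, none of the 36 was called higher by limma (0 also at an unadjusted p under 0.05) and 14 were called lower, where 0.361% of all genes were higher and 81.1% lower, and the median of the 36 was −0.55, beside −1.48 for all genes. Relative to microglial transcripts, 34 of the 36 log2 changes (94.4%) were negative, as were 95.5% of those of all genes tested, the exceptions among the 36 being Slc17a6 (0.24) and Slc17a8 (0.074). "Rose" and "fell" below describe the values as deposited. The counts by role below are to be read beside the 26.6% of all genes tested called higher and the 29.0% called lower as deposited.

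**Figure D3:**
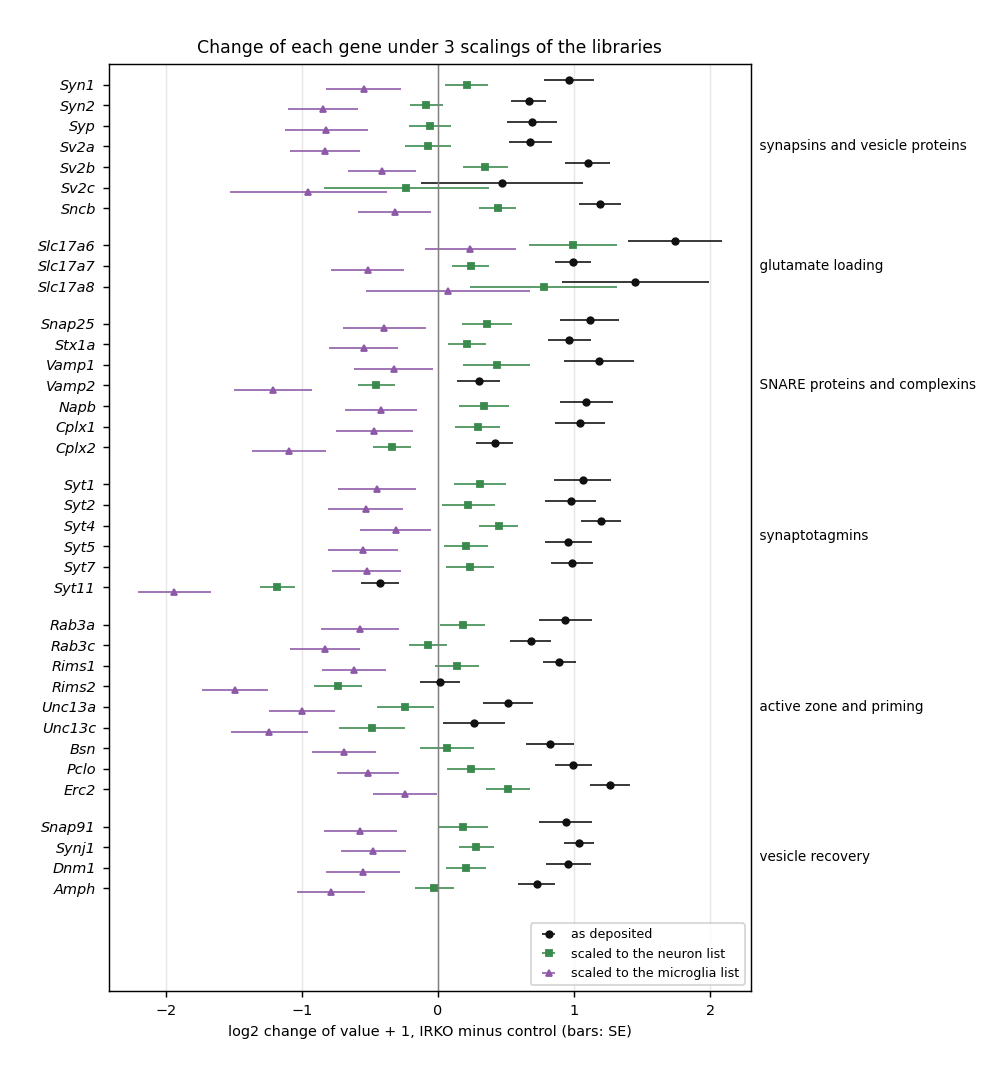
Log2 change of each of the 36 genes, IRKO minus control, with SE bars, as deposited (black circles), scaled to the neuron list (green squares) and scaled to the microglia list (purple triangles). Scaling moves all genes by nearly the same amount, so the order of the genes is nearly kept: Syt11, Rims2, Unc13c and Vamp2 lie furthest left and Slc17a6 furthest right under each scaling.

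Of the 7 synapsin and vesicle protein genes, 6 rose and 1 did not pass. Syn1, on chromosome X, 20860511 to 20920918 in GRCm38.p6, encodes synapsin I, which tethers vesicles to each other and to the cytoskeleton. Its normalized counts were 5330.2, 6346, 6125 and 4829 in IRKO replicates 1 to 4, against 2333 and 3565 in control replicates 1 and 2, a log2 change of 0.96 ± 0.184 (SE; limma adjusted p = 0.00200). All 4 IRKO values lay above both controls, although the controls themselves differed. Syn2, its close relative, rose less, at 3872, 4376, 4594 and 3683 in IRKO and 2439.7 and 2748 in the controls (0.67 ± 0.129, SE). Syp, the gene of synaptophysin, an abundant membrane protein of the vesicle, had 25492, 25434, 23741 and 18947 in IRKO, against 12758 and 16237 in the controls (0.69 ± 0.182, SE). IRKO replicate 4 was the lowest of the 4 for Syn1, Syn2 and Syp. The call for Syp was lost without control replicate 1 (log2 change 0.52, limma adjusted p = 0.138).

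Sncb, which encodes beta-synuclein, a presynaptic relative of alpha-synuclein, had the largest log2 change of these 7 genes. Its counts were 6857, 7317, 7889.8 and 5786 in IRKO and 2714 and 3383 in the controls (1.19 ± 0.155, SE; limma adjusted p = 2.23e-04), and it stayed higher when libraries were scaled to the neuron list (0.44, limma adjusted p = 0.0135). The SV2 glycoproteins are vesicle membrane proteins, and SV2A is the binding site of the antiepileptic drug levetiracetam. Sv2b had 2779, 2786, 2321 and 1999 in IRKO, against 1013 and 1283 in the controls (1.10 ± 0.165, SE). Sv2a had 2005, 2208, 2603 and 2607 in IRKO, against 1269.9 and 1684 in the controls (0.68 ± 0.157, SE), and no longer passed without control replicate 1 (0.48, limma adjusted p = 0.0751). The order of the IRKO libraries differed between them: Sv2b was higher in replicates 1 and 2 and Sv2a in replicates 3 and 4. Sv2c, at 13.9, 13.8, 14.6 and 44.8 in IRKO and 7.87 and 22.3 in the controls, was read at 7 to 46 reads per library, and a difference was not detectable at this depth (limma adjusted p = 0.524).

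The 3 vesicular glutamate transporters, which load glutamate into vesicles, all rose. Slc17a7 (VGLUT1, the main form of cortex, hippocampus and cerebellar granule cells) had 9053, 10798, 10996 and 10665 in IRKO, against 4875 and 5546 in the controls (0.99 ± 0.134, SE; limma adjusted p = 2.85e-04). Slc17a6 (VGLUT2, the main form of thalamus and brainstem), on chromosome 7, 51621830 to 51671126, had 331, 334, 777 and 428 in IRKO, against 169 and 101 in the controls (1.74 ± 0.345, SE; limma adjusted p = 0.00240). IRKO replicate 3 stood highest, but the other 3 IRKO libraries were also above both controls, and Slc17a6 had the highest log2 change of the 36 genes. Its call held in the neuron scaling (0.99, limma adjusted p = 0.0188). Slc17a8 (VGLUT3, found in scattered interneurons and serotonergic neurons) was read at 3 to 32 reads per library, with 18.8, 18.7, 31.1 and 19.5 in IRKO and 3.37 and 14.5 in the controls. Its call (limma adjusted p = 0.0453) was not made by edgeR (0.0834) or DESeq2 (0.103) on the recovered reads, and leaving out control replicate 1 gave a change of 0.54 (limma adjusted p = 0.367), while leaving out control replicate 2 gave 2.36 (0.00661). It was also lost without each of the IRKO replicates, at changes of 1.28 to 1.51 (limma adjusted p = 0.0622 to 0.0996), with quantile normalization (1.31, limma adjusted p = 0.0637) and with the replicate block (1.26, limma adjusted p = 0.142). That block has a term for each replicate number, so only replicates 1 and 2 of the groups are compared, here and below.

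Among the 7 genes of the SNARE complex and its partners, 6 rose and Vamp2 did not pass. The SNARE complex that fuses a vesicle is built from SNAP-25 and syntaxin-1 on the plasma membrane and a VAMP on the vesicle. Snap25, on chromosome 2, 136713439 to 136782428, had 25113, 24618, 21881 and 15528 in IRKO, against 8671 and 11267 in the controls (1.11 ± 0.219, SE; limma adjusted p = 0.00229). Replicate 4 was the lowest IRKO library and still lay above both controls. Stx1a, for syntaxin-1A, had 2785, 3816, 3288 and 2589.8 in IRKO, against 1513 and 1649.8 in the controls (0.96 ± 0.160, SE). Napb, for the brain form of SNAP, which helps to take spent SNARE complexes apart, had 3319, 3578, 2949 and 2556 in IRKO, against 1159 and 1801 in the controls (1.09 ± 0.193, SE).

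The 2 vesicle SNARE genes fell on different sides of the threshold, and the difference between them was not tested. Vamp2, the VAMP of most forebrain synapses, had 12891, 13666, 13958 and 11264 in IRKO, against 9218 and 11914 in the controls (0.30 ± 0.158, SE; limma adjusted p = 0.133), and IRKO replicate 4 lay below control replicate 2. Its change was 0.11 when control replicate 1 was left out and 0.48 when control replicate 2 was, with limma adjusted p of 0.675 and 0.0870. Vamp2 passed as higher under quantile normalization (0.70, limma adjusted p = 0.00267) and as lower in the neuron scaling (−0.45, limma adjusted p = 0.0127). Vamp1, the form known from spinal cord, brainstem and motor terminals, had 1168, 1477, 2431 and 2069.7 in IRKO, against 818 and 698 in the controls (1.18 ± 0.259, SE; limma adjusted p = 0.00411). Within IRKO, Vamp1 was higher in replicates 3 and 4 than in replicates 1 and 2. The complexins bind the assembled SNARE complex and regulate the last step before fusion. Cplx1 had 5169.8, 5926, 7327 and 6082 in IRKO, against 2423 and 3588 in the controls (1.04 ± 0.185, SE), whereas Cplx2 had 11445, 13245, 13003 and 12270.2 in IRKO and 10123 and 8611 in the controls (0.42 ± 0.136, SE; limma adjusted p = 0.0270). The call for Cplx2 was lost without control replicate 2, where the change was smaller (0.30, limma adjusted p = 0.224). It was also lost without control replicate 1 (0.53, limma adjusted p = 0.0519), without IRKO replicate 2 (0.39, limma adjusted p = 0.0708) and with the replicate block (0.40, limma adjusted p = 0.0975), at changes as large or nearly so.

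Of the 6 synaptotagmins, 5 rose and Syt11 fell. Synaptotagmins are membrane proteins with paired C2 domains, and several of them trigger fusion when calcium binds these domains. Syt1, the fast calcium sensor of forebrain synapses, had 10769.5, 10887, 9098 and 7684 in IRKO, against 3636 and 5708 in the controls (1.06 ± 0.208, SE; limma adjusted p = 0.00226). Syt2, the fast sensor of many hindbrain and inhibitory synapses, had 421, 438, 673 and 499 in IRKO, against 259 and 248 in the controls (0.98 ± 0.189, SE). The groups did not overlap in either gene, and the 4 IRKO libraries were ordered differently: replicates 1 and 2 were highest for Syt1, and replicates 3 and 4 for Syt2. Syt7, a slower sensor linked to asynchronous release and facilitation, had 1975, 2136, 2646 and 2765 in IRKO, against 1183 and 1197 in the controls (0.99 ± 0.151, SE). All 4 IRKO values lay above both controls, which were nearly equal.

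Syt4, a synaptotagmin of dense-core vesicles, had 2238, 2201, 2479 and 1864 in IRKO, against 837 and 1082 in the controls (1.20 ± 0.149, SE; limma adjusted p = 1.70e-04), and its call held in the neuron scaling (0.45, limma adjusted p = 0.0178). Syt5 had 1801 to 2489.9 over the IRKO libraries and 931 and 1337 in the controls (0.96 ± 0.173, SE). Syt11, on chromosome 3, 88744699 to 88775159, encodes a synaptotagmin that does not bind calcium and is known to restrain endocytosis in neurons and phagocytosis in microglia. It had 7514, 8190.4, 8074 and 6324 in IRKO, against 10173 and 9949 in the controls (−0.43 ± 0.141, SE; limma adjusted p = 0.0283). Every IRKO library lay below both controls, and no other gene of the 36 was called lower. The call was lost at a similar size of change without control replicate 1 (−0.41, limma adjusted p = 0.135) or control replicate 2 (−0.44, limma adjusted p = 0.109), and with edgeR on the reads of the 5 libraries without IRKO replicate 1 (−0.39, adjusted p = 0.0538). It was also lost with the replicate block (−0.36, limma adjusted p = 0.0716) and after quantile normalization, where the change was smaller (−0.078, with an adjusted p of 0.587). Scaled to the neuron list its change was −1.18 (limma adjusted p = 1.30e-05), the lowest of the 36.

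Of the 9 active zone and priming genes, 7 rose, and Rims2 and Unc13c did not pass. Erc2, on chromosome 14, 27622275 to 28478537, encodes a scaffold of the active zone also called CAST. Its counts were 1212, 1342, 1039.5 and 960.3 in IRKO, against 475 and 463 in the controls (1.27 ± 0.147, SE; limma adjusted p = 1.14e-04), and the call held in the neuron scaling (0.51, limma adjusted p = 0.0171). Bassoon and piccolo are giant scaffolds of the same structure. Bsn had 2427, 3128, 2508 and 2863 in IRKO, against 1894 and 1247 in the controls (0.82 ± 0.177, SE). Pclo had 1295, 1467, 1296 and 1406 in IRKO, against 791 and 592 in the controls (0.99 ± 0.137, SE). In all 3 genes the lowest IRKO library exceeded the higher control. Without control replicate 2 the change of Bsn was 0.52 (limma adjusted p = 0.0481).

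RIM proteins link Rab3 on the vesicle to calcium channels and to Munc13. Rims1 had 1522, 1576, 1637 and 1618 in IRKO, against 962 and 760.0 in the controls (0.89 ± 0.121, SE; limma adjusted p = 2.86e-04). Rims2 had 520.0, 643, 676 and 709 in IRKO, against 670.4 and 583 in the controls (0.017 ± 0.148, SE; limma adjusted p = 0.929), so the groups overlapped for Rims2 and not for Rims1. In the neuron scaling Rims2 was called lower (−0.73, limma adjusted p = 0.00359).

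Munc13 proteins make docked vesicles ready to fuse. Unc13a, the main form of forebrain glutamatergic synapses, had 1279, 1477, 1591 and 1811 in IRKO, against 1301 and 879 in the controls (0.51 ± 0.182, SE; limma adjusted p = 0.0379), and IRKO replicate 1 lay just below control replicate 1. Leaving out control replicate 1 brought the change of Unc13a to 0.80 (limma adjusted p = 0.0161), and leaving out control replicate 2 brought it to 0.23 (0.367). Without each of IRKO replicates 2, 3 and 4 its change was 0.53, 0.49 and 0.43, and its limma adjusted p was 0.0609 to 0.0791. With the replicate block it was 0.36 (limma adjusted p = 0.189), and without the variance trend the adjusted p was 0.0799. Unc13c, the form of cerebellar granule cells, had 253, 284, 427 and 422 in IRKO, against 298 and 263 in the controls (0.27 ± 0.229, SE; limma adjusted p = 0.346). IRKO replicates 3 and 4 lay above both controls for Unc13c and replicates 1 and 2 did not. The small GTPases of the vesicle, Rab3a and Rab3c, rose. Rab3a had 8666, 9003, 9027 and 6558 in IRKO, against 3507 and 5296 in the controls (0.94 ± 0.196, SE), and no longer passed without control replicate 1 (0.64, limma adjusted p = 0.0526). Rab3c had 3676, 3702, 3782 and 2703 in IRKO, against 2089 and 2199 in the controls (0.68 ± 0.152, SE). IRKO replicate 4 was the lowest of its group for both Rab3 genes.

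All 4 genes of vesicle recovery rose, where 26.6% of all genes tested were called higher. In each of the 4 every IRKO value lay above both controls, as in 32.8% of all genes tested. Synj1, for synaptojanin-1, a lipid phosphatase that strips clathrin coats, had 2270.4, 2624, 2427 and 2253 in IRKO, against 1145 and 1188 in the controls (1.03 ± 0.110, SE; limma adjusted p = 6.71e-05), the smallest adjusted p of the 36. Dnm1, for dynamin-1, the GTPase that pinches off endocytic vesicles at terminals, had 4253, 5243, 5769 and 4876 in IRKO, against 2219 and 2984 in the controls (0.96 ± 0.162, SE). Snap91, for the clathrin adaptor AP180, had 2267, 2130.1, 2220.0 and 1742 in IRKO, against 849 and 1386 in the controls (0.94 ± 0.193, SE). Its controls lay far apart, and without control replicate 1 the change was 0.59 (limma adjusted p = 0.0342). Amph, for amphiphysin, which senses membrane curvature and recruits dynamin, changed least of these: it had 788, 899, 906 and 771 in IRKO, against 458 and 563 in the controls (0.72 ± 0.133, SE).

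The order of the libraries is given here by role, and differences between the roles were not tested. Control replicate 2 was above control replicate 1 in 24 of the 36 genes (66.7%, beside 47.2% of all genes tested), with a median log2 difference of 0.24. This held for all 7 synapsin and vesicle protein genes (median 0.35) and all 4 recovery genes (median 0.36). By contrast, it held for only 2 of the 9 active zone and priming genes, Rab3a and Rab3c, and the 7 others (Rims1, Rims2, Unc13a, Unc13c, Bsn, Pclo and Erc2) were all higher in control replicate 1. Among the IRKO libraries, the lowest value lay in replicate 4 for 19 genes, in replicate 1 for 15, in replicate 2 for 2 and in replicate 3 for none of the 36. Of the 14698 genes tested, the lowest value lay in replicate 4 for 4340, in replicate 1 for 3789, in replicate 2 for 2899 and in replicate 3 for 3670. Relative to the control mean, the median log2 difference of the 36 genes was 0.81, 1.02, 1.03 and 0.82 in IRKO replicates 1 to 4, against −0.12 and 0.12 in control replicates 1 and 2. The summed microglia list was lowest of the IRKO libraries in replicate 3, at 291029.

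Ratios of related genes within a library do not change when the library is divided by 1 factor, although quantile normalization can change them. From pairs chosen after the values were known, 14 such ratios were computed, so they are given without a test. Their size also depends on the length of each transcript, and only their differences between libraries are read. The ratio of Syt11 to Syt1 was 0.698, 0.752, 0.887 and 0.823 in IRKO replicates 1 to 4, against 2.80 and 1.74 in the controls, so every IRKO value lay below every control value. Rims2 over Rims1 was 0.342, 0.408, 0.413 and 0.438 in IRKO, against 0.697 and 0.767 in the controls, again with no overlap. Cplx1 over Cplx2 was 0.452, 0.447, 0.564 and 0.496 in IRKO, against 0.239 and 0.417 in the controls, and all IRKO values were higher, although control replicate 2 lay close to them. For Vamp1 over Vamp2 the ratios were 0.0906, 0.108, 0.174 and 0.184 in IRKO, against 0.0887 and 0.0586 in the controls, with IRKO replicate 1 hardly above control replicate 1. Syn2 over Syn1 was 0.690 to 0.763 in IRKO and 1.05 and 0.771 in the controls. The groups overlapped for the other 9 ratios, among them Slc17a6 over Slc17a7 (0.0309 to 0.0707 in IRKO, 0.0346 and 0.0182 in the controls) and Pclo over Bsn (0.469 to 0.533 in IRKO, 0.417 and 0.474 in the controls).

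**Figure D4:**
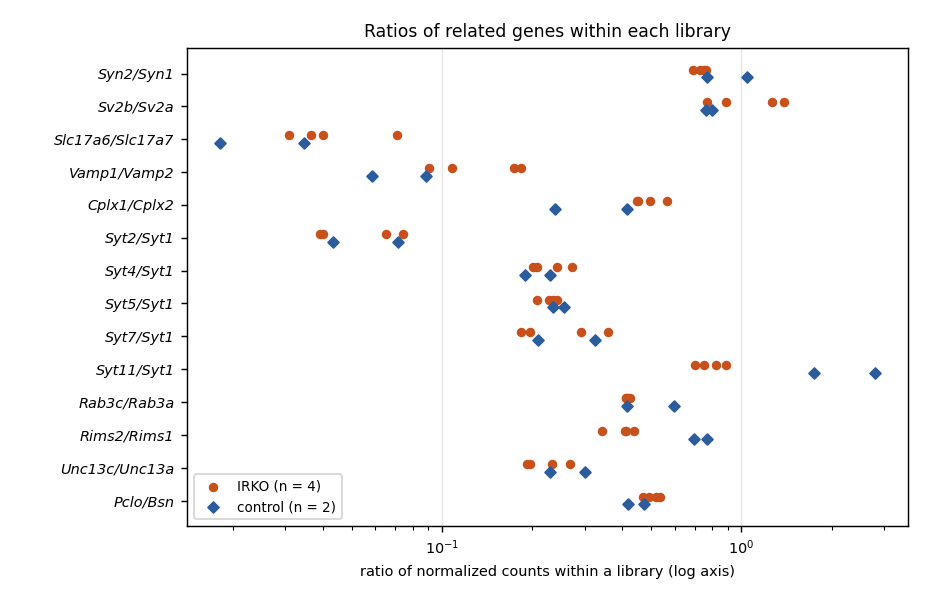
Ratio of the normalized counts of 2 related genes within each library, on a log axis, with 1 point per library (orange circles, 4 IRKO; blue diamonds, 2 control). The groups are far apart for Syt11/Syt1 and Rims2/Rims1, whose IRKO ratios reach at most 0.887 and 0.438, and they overlap in most other pairs.

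Beyond the 36 genes, 56 other genes of release, docking and recovery were followed as a list, all of them tested. Of these 40 rose, 6 fell and 10 did not pass, beside the 26.6% and 29.0% of all genes given above, with a median log2 change of 0.79 and, scaled to the neuron list, 0.041. Nrxn3, a neurexin that joins the terminal to its target cell, had 3837, 3430.3, 3208 and 2949 in IRKO, against 1183 and 1441 in the controls (1.35 ± 0.138, SE). Dnajc6, for auxilin, which uncoats clathrin vesicles, changed by 1.12 ± 0.115 (SE), Stxbp5, for tomosyn, an inhibitor of SNARE assembly, by 0.99 ± 0.105 and Dnm3, for a dynamin, by 1.11 ± 0.119. Scaled to the microglia list, none of the 56 was called higher by limma (0 also at an unadjusted p under 0.05) and the change of Nrxn3 was −0.15. The falls included Itsn1, an endocytic scaffold, at 934, 1053, 1088 and 1192 in IRKO and 3739.9 and 2916 in the controls (−1.63 ± 0.141, SE; limma adjusted p = 1.87e-05). Erc1 encodes ELKS, the widely expressed relative of CAST, and had 280.3, 299, 327 and 355 in IRKO, against 787 and 720.4 in the controls (−1.26 ± 0.135, SE). Erc1 thus fell where Erc2 rose. Nrxn2 (−0.99 ± 0.124, SE) was lower where Nrxn3 was higher, and the differences within these pairs were not tested. Astrocyte markers fell in the same libraries (median −4.11), and whether the reads of Itsn1, Erc1 and Nrxn2 came from astrocytes was not tested.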

How the data were processed

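Ribosome-bound mRNA was sequenced from 4 IRKO and 2 control precipitates. The deposited values are a signal per gene, read counts divided by 1 size factor per sample, as the deposited values themselves show: all were whole multiples, within 0.05 reads, of the smallest value above 0, so 100% gave whole reads. Per the submitters' processing notes, Bowtie2 and GRCm38.p6 were used. How reads were counted, with which annotation and strand setting, and what computed the size factors is not given in the sources used here. In IRKO replicate 1 a read was worth 0.991, the nearest to 1 of the libraries, and edgeR was also run without it, although its values too gave whole reads.

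The filter kept the 14698 of 18887 genes that reached 10 in 2 or more samples. They were tested on log2(value + 1), a pseudocount that understates changes of low genes, with limma 3.58.1 (R 4.3.3, mean-variance trend, IRKO minus control, all 6 samples). The two-sided p-values were adjusted by Benjamini-Hochberg over all 14698 genes and read at 0.05. The recovered reads were also tested with edgeR 4.0.16 and with DESeq2 1.42.0. Other alternatives were other pseudocounts, filters, scalings and variance models, a replicate block, and each library left out in turn. The block compares the groups through replicates 1 and 2 alone, as replicates 3 and 4 had no control of the same number. The scripts were tested on simulated data. Coordinates came from RefSeq's GRCm38.p6 gene table, which held all 36 symbols.

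Named were Insr, all 36 genes, and up to 4 genes with the smallest p in each direction of the list of other release genes, of which 1 is not reported here. The members and lists were chosen with earlier results of these data known. The deviations of same-numbered libraries from their group means had correlations of −0.08 and 0.08. With 2 controls the deviations of the controls mirror each other, so these values cannot show whether the libraries were paired. The numbers were not taken as pairs.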

Additional observations from a re-analysis of the deposited data

Results flagged for a closer look

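In each of the 36 genes, in the 14 ratios and in the sum of the 36 genes, the highest or lowest of the 4 IRKO libraries was compared with the other 3. Of 51 such checks 5 found a library standing apart, where chance gives about 1 in 20 of independent checks. These checks share genes and libraries, so they are not independent, and an excess over chance was not tested. Sv2c stood at 44.8 normalized counts in IRKO replicate 4 and Slc17a8 at 31.1 in IRKO replicate 3, both higher than the other 3 and both from few reads. Slc17a7 was lowest in IRKO replicate 1, at 9053, and only just reached the limit for standing apart. Rab3a at 6558 and Rab3c at 2703 were lowest in IRKO replicate 4. All 5 values lay above both controls.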

How the results depend on the processing

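The direction of the changes rested on the scaling, and only 2 control libraries limit every comparison. Scaled to the microglia list, 0 of the 36 genes were higher and 14 lower by limma, with a median of −0.55; of the other release genes 0 were higher and 38 lower (median −0.72), and of all genes 53 and 11917. This scaling turned the log2 changes of Syn1 (−0.55), Syn2 (−0.84), Syp (−0.82), Sv2a (−0.83), Sv2b (−0.41), Sv2c (−0.95), Sncb (−0.32), Slc17a7 (−0.52), Snap25 (−0.39), Stx1a (−0.54), Vamp1 (−0.33), Vamp2 (−1.21), Napb (−0.42), Cplx1 (−0.47), Cplx2 (−1.09), Syt1 (−0.45), Syt2 (−0.53), Syt4 (−0.31), Syt5 (−0.55), Syt7 (−0.52), Rab3a (−0.57), Rab3c (−0.83), Rims1 (−0.62), Rims2 (−1.49), Unc13a (−0.995), Unc13c (−1.24), Bsn (−0.69), Pclo (−0.51), Erc2 (−0.24), Snap91 (−0.57), Synj1 (−0.48), Dnm1 (−0.55) and Amph (−0.78). Scaled to the neuron list, 4 were higher and 3 lower (median 0.21), with 5 and 13 of the other release genes (median 0.041) and 736 and 8627 of all genes, and the turned changes were Syn2 (−0.084), Syp (−0.062), Sv2a (−0.074), Sv2c (−0.23), Vamp2 (−0.45), Cplx2 (−0.34), Rab3c (−0.072), Rims2 (−0.73), Unc13a (−0.24), Unc13c (−0.48) and Amph (−0.027). Both scalings shift every gene of a library alike by construction. Under quantile normalization 31 of the 36 were higher and 0 lower, beside 4527 and 3559 of all genes. The medians were then 1.22 for the 36, 0.98 for the other release genes and 0.12 for all genes tested.

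The replicate block compares only IRKO replicates 1 and 2 with control replicates 1 and 2. Replicates 3 and 4 were in IRKO alone, so each was taken up by its own block term. With this block 28 of the 36 were higher and 0 lower, and Rims2 (−0.11) and Unc13c (−0.065) turned. It moved the calls over all genes to 3244 higher and 3691 lower, against 3911 and 4262 without it. edgeR without IRKO replicate 1, added after the data were seen, called 30 of the 36 higher and 0 lower. Of all genes it called 3711 higher and 3994 lower. At an unadjusted edgeR p under 0.05, 1 of the 36 was lower in that run. Rims2 was −0.0082 with sample weights. Leaving out each library in turn gave 26 to 30 genes of the 36 higher, 0 to 1 lower and a median of 0.75 to 1.06; for the other release genes 32 to 39, 4 to 6 and 0.60 to 0.89; and for all genes 2802 to 3668 higher and 3248 to 4152 lower. The lowest of these for the 36 came without control replicate 1. In these runs Rims2 ranged from −0.083 to 0.12 and Sv2c from −0.23 to 1.17. Pseudocounts of 0.5 and 5, no filter, a filter at 50, TMM scaling, no trend, sample weights, edgeR and DESeq2 on all 6 libraries called 30 or 31 of the 36 higher and 1 lower. Where 1 control was left out, the lone control was assumed to vary like the IRKO libraries. The causes of these shifts were not tested.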

Other observations

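Lists of neuron classes are read against all genes tested, of which 26.6% were called higher and 29.0% lower. Of 12 genes of forebrain excitatory neurons 11 rose and none fell by limma (0 also at an unadjusted p under 0.05), edgeR or DESeq2. The median of their log2 changes was 1.04, and the list summed to 51199 to 84037 normalized counts in IRKO and 27741 and 32786 in the controls. Of 12 genes of inhibitory neurons 5 rose and 3 fell (median 0.55), with summed levels of 12878 to 15352 in IRKO and 16307 and 17514 in the controls. Of 8 tested genes of cerebellar granule cells 5 rose and 1 fell (median 0.70). Scaled to the general neuron list, the medians were 0.29, −0.20 and −0.05 in the same order, and differences between the lists were not tested.

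Glial and vascular lists were counted in the same way, against the same shares of all genes. Of 14 oligodendrocyte genes 8 rose and 1 fell, of 10 precursor genes 4 rose and 3 fell, and of 13 endothelial and mural genes 7 rose and 1 fell. The precursor list, with 40.0% higher and 30.0% lower, lay near those shares. The medians were 0.86, 0.63 and 0.76, beside 0.96 for the 36 vesicle and release genes.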
